A study of Rattus norvegicus with 12 samples.

Results

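The genes described here are the 34 that code for the lysosomal proton pump (V-ATPase), for the Ragulator and Rag GTPase complexes that hold mTORC1 at the lysosome, for the folliculin complex, for the transcription factors TFEB, TFE3 and MITF, and for the mTORC1 subunits Mtor and Rptor. They were taken by symbol from the 22850 features of the deposited tables, and all 34 were found. By role they were 8 genes of the membrane-embedded V0 sector of the pump, 8 of its cytosolic V1 sector, 2 accessory subunits, 5 Ragulator subunits, 3 Rag GTPases, 3 genes of the folliculin complex, 3 MiT/TFE factors and 2 mTORC1 subunits. RNA came from primary atrial fibroblasts of Sprague-Dawley rats aged 1 to 3 days, which had been separated from myocytes by differential adhesion. There were 3 treatments with 4 libraries each. The AngII group received angiotensin II at 1 μmol/L for 48 h in medium with 2% serum. The AngII+HNG group received HNG, an analogue of the mitochondrial peptide humanin, at 10 μmol/L from 1 h before the same AngII treatment. The AngII+MOTS-c group received MOTS-c, another peptide encoded in mitochondrial DNA, at 5 μmol/L in the same way. All 3 groups therefore carried AngII, no group without it was analysed here, and the peptides were used at different doses. Each library held 27960586 to 38322354 counts. The study describes the 4 libraries of a group as biological replicates.

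The V-ATPase moves protons into the lysosome with energy from ATP hydrolysed in the V1 sector, and the acid it makes activates the lysosomal hydrolases. Ragulator anchors the Rag GTPases to the lysosomal membrane, where, when amino acids are plentiful, they bring mTORC1 to its activator. The folliculin complex acts on RagC and RagD and so governs the branch of the pathway through which mTORC1 phosphorylates TFEB and TFE3 and keeps them in the cytoplasm. When that phosphorylation is lost, the factors enter the nucleus and bind E-boxes in promoters of lysosomal genes, several of the genes described here among them. RNA levels do not report phosphorylation, nuclear entry or pump assembly, so none of these was measured.

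Promoter sequences were searched because TFEB, TFE3 and MITF bind the E-box, CACGTG, which reads the same on both strands. RefSeq entries for the rat build GRCr8, 250 bases before to 50 after a transcription start, were found for 24 of the 34 genes. The members without an entry were Rragc, Lamtor3, Atp6v1c1, Atp6v0d2, Atp6v0e2, Rraga, Atp6v1b2, Atp6v1h, Rragd and Rptor. An E-box lay in 4 of the 24 promoters (16.7%), in 6.42% of all 33469 promoters of the table and in 9.13% of the 10926 promoters of genes tested with AngII+HNG against AngII. The first base of the match was at -178 in Lamtor1, the Ragulator subunit that anchors the complex to the membrane, at -85 in Fnip1, at -52 in Atp6v0d1 and at +25 in Atp6v0e1, where +1 is the start and no position 0 is counted. These stretches are shown with the E-box in capitals, 5′ to 3′ along the gene.
Lamtor1, chr1:165683910-165683969 (GRCr8, plus strand): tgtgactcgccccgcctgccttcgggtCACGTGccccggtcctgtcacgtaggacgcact
Fnip1, chr10:39068352-39068411 (GRCr8, plus strand): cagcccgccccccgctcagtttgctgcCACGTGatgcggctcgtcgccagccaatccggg
Atp6v0d1, chr19:50357268-50357327 (GRCr8, minus strand): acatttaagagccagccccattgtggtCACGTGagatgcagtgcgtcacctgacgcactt
Atp6v0e1, chr10:17007117-17007142 (GRCr8, minus strand): gcgcgccggtCACGTGagcctctgtt
In each of these 4 the E-box was preceded by T or followed by A on the gene's strand, a form found in 3.2% of all promoters and in 5.4% of those of tested genes, and this form is counted within the E-boxes. The longer CLEAR element, searched as CACGTG with GT before and AC after it, was in 0 of the 24 and in 0.233% of all promoters (0.522% of those of tested genes). The same search also found it in 0 of 24 promoters of known TFEB target genes, a list described below. The M-box CATGTG, searched on both strands, was in 5 of the 24 (Lamtor1, Lamtor2, Atp6v0c, Atp6v0e1 and Atp6v1a; 20.8%), in 14% of all promoters and in 8.28% of those of tested genes.

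For comparison, the 80 bases directly before the start are shown for 3 genes that were higher with AngII+HNG and whose promoter entry held no E-box.
Atp6v1d, chr6:103405347-103405426 (GRCr8, minus strand): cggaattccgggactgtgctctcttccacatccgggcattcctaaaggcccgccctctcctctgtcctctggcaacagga
Atp6ap1, chrX:157231163-157231242 (GRCr8, plus strand): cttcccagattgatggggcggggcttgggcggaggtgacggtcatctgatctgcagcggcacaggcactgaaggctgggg
Atp6ap2, chrX:12883671-12883750 (GRCr8, minus strand): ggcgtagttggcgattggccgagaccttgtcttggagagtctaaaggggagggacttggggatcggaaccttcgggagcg
Of the 6 genes that were higher with AngII+HNG, Lamtor1 alone had an E-box in its entry, Flcn, Atp6v1d, Atp6ap1 and Atp6ap2 had none, and Atp6v1b2 had no entry. Of the 4 genes with an E-box, Fnip1, Atp6v0d1 and Atp6v0e1 did not pass the test. Over the tested genes with an entry, the median log2 fold change with AngII+HNG was 0.022 for the 998 with an E-box and -0.00023 for the 9928 without. A match is a string of letters, and binding at these sites was not measured.

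The levels of the 34 genes were compared per length as FPKM, the authors' counts divided by gene length and library total. In the AngII libraries the pump subunits spanned from 143 FPKM for Atp6v0c, the proteolipid that forms most of the rotating membrane ring, to 0.214 FPKM for Atp6v0d2. Atp6v1g1, a subunit of the stalk, followed Atp6v0c at 131 FPKM, and these neighbours overlapped between libraries. Atp6v0d1 at 82.4 FPKM and the accessory subunit Atp6ap1 at 67.3 FPKM each lay above the next gene in every AngII library. The next 7 genes, Atp6v1f, Atp6v0e1, Lamtor2, Atp6v1e1, Atp6v1d, Lamtor1 and Rragc, ran from 55.8 down to 44.5 FPKM, and neighbours among them overlapped.

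The V1 subunits of the ATP-binding hexamer were of similar level, 29.8 FPKM for Atp6v1a and 28.6 FPKM for Atp6v1b2. The Ragulator genes lay between 25.5 FPKM for Lamtor4 and 49.8 FPKM for Lamtor2. The regulators were lower. Flcn read 17.2 FPKM, Fnip1 7.998 and Fnip2 5.95, and Mtor and Rptor read 8.48 and 5.12 FPKM. Tfe3 was the highest of the MiT/TFE factors at 14.997 FPKM, above Tfeb at 5.87 and Mitf at 2.11 FPKM. The FPKM of Mitf, Fnip2 and Atp6v0d2 was not a fixed multiple of the count over the 12 libraries (it deviated by up to 16.3%, 18.8% and 13.3%), so for these 3 genes ratios of FPKM and of CPM between libraries can differ.

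**Figure D1:**
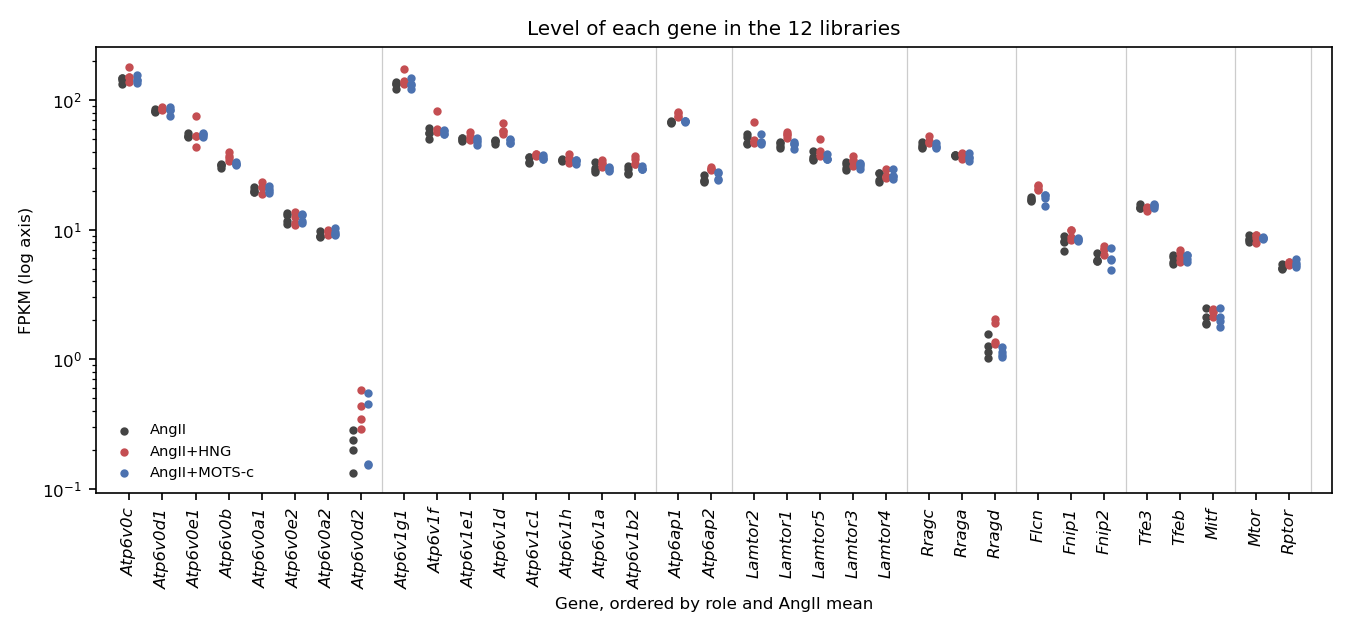
FPKM (log axis) of the 34 genes in each of the 12 libraries, grouped by role and ordered by the AngII mean, with 1 point per library. Atp6v0c and Atp6v1g1 sit above 100 FPKM, most pump and Ragulator genes between 20 and 90 FPKM, the folliculin, MiT/TFE and mTORC1 genes below these, and Rragd and Atp6v0d2 at the bottom of their roles.

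For several pump subunits with more than 1 gene, a single gene held most of the RNA. Atp6v0d1 made up 99.7% ± 0.073 (SD, n = 4) of the FPKM of the d subunits in AngII, Atp6v1b2 99.9% ± 0.076 of the B subunits, Atp6v1c1 95.9% ± 0.79 of the C subunits and Atp6v1g1 99.4% ± 0.044 of the G subunits. The a subunits, which place the pump in different membranes, were divided. Atp6v0a1 held 48.0% ± 1.63, Tcirg1, the a3 gene best known from osteoclasts, 30.1% ± 1.62, and Atp6v0a2 21.8% ± 1.15 in AngII. With AngII+HNG the shares were 45.8% ± 1.67 for Atp6v0a1, 33.2% ± 1.84 for Tcirg1 and 20.9% ± 0.94 for Atp6v0a2. With AngII+MOTS-c they were 46.3% ± 0.80, 31.9% ± 0.85 and 21.7% ± 1.44 in the same order, and the shares were not tested. Rragc held 97.2% ± 0.58 of the FPKM of RagC and RagD together.

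Libraries and cell types were checked before the comparisons. AngII+HNG replicate 3 stood apart for short genes. The 7 genes of the set under 1000 bases (Atp6v0b, Atp6v0e1, Atp6v0e2, Atp6v1f, Lamtor2, Lamtor4 and Lamtor5) had a median deviation from the AngII mean of 0.41 log2 CPM in that library, against 0.10 for the other 27 and 0.20 for all 1061 tested genes of that length. None of the 6 genes called below is under 1000 bases. The fibroblast markers summed to 69572 to 77039 CPM in every library, and cardiomyocyte markers to 4742 to 6425 CPM, with all 8 detected, so myocyte transcripts were present in all 3 groups. Macrophage markers, 16 of 16 detected, summed to 320 to 388 CPM in AngII, 426 to 553 CPM in AngII+HNG and 315 to 380 CPM in AngII+MOTS-c. Endothelial markers, 7 of 7 detected, summed to 69.1 to 78.0, 88.6 to 97.8 and 72.5 to 77.3 CPM in the same order. Smooth muscle and pericyte markers, 7 of 7 detected, summed to 1832 to 1988 CPM in AngII, 1644 to 1852 CPM in AngII+HNG and 1801 to 1973 CPM in AngII+MOTS-c. All 7 had log2 fold changes below 0 with AngII+HNG against AngII, and 3 were lower at an adjusted p below 0.05 in edgeR, the contractile genes Cnn1 (-0.41, adjusted p = 0.000126), Myh11 (-0.34, adjusted p = 0.00152) and Smtn (-0.31, adjusted p = 0.000511). With AngII+MOTS-c 5 of the 7 were below 0 and 0 passed that threshold, with 3 at an unadjusted p below 0.05. With AngII+HNG against AngII, 3 of 7 endothelial (Tie1, Tek and Kdr, from 0.40 to 0.43), 2 of 10 fibroblast (Thy1 0.17, Tcf21 0.28) and 1 of 8 cardiomyocyte markers (Tnni3 0.43, all as log2 fold changes) were higher at that threshold and 0 of these 25 were lower, where 3.4% of all tested genes were higher and 2.58% lower. The part of these shifts in the results was not tested. In bulk RNA, more cells of a type and more RNA per cell cannot be told apart.

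The first question was which of the 34 genes differed when HNG was given with AngII. With HNG, 6 genes were higher and 0 were lower in edgeR's quasi-likelihood test at an adjusted p below 0.05. They were Flcn of the folliculin complex, Lamtor1 of Ragulator, the V1 subunits Atp6v1d and Atp6v1b2, and both accessory subunits, Atp6ap1 and Atp6ap2. The differences were small, from 1.13-fold for Atp6ap1 to 1.22-fold for Atp6v1d. Tfeb, Tfe3, Mitf, Mtor and Rptor did not pass the test, nor did any V0 gene or Rag GTPase.

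Among all 14524 genes tested in this comparison, 3.4% were called higher and 2.58% lower. A log2 fold change above 0 was found for 31 of the 34 genes, against 51.3% of all tested, and the median of the 34 was 0.11 against 0.0043 over all tested genes. The unadjusted p was below 0.05 for 12 of the 34 and for 20.3% of all tested. The 4 AngII+HNG libraries lay wholly above the 4 AngII libraries for 9 genes and wholly below them for 1, Tfe3, where 13.7% of all tested genes did not overlap in either direction. By role, 2 of 2 accessory subunits, 2 of 8 V1, 0 of 8 V0, 1 of 5 Ragulator, 0 of 3 Rag, 1 of 3 folliculin, 0 of 3 MiT/TFE and 0 of 2 mTORC1 genes were called. The count depended on single libraries. It was 2 without AngII replicate 1 (Lamtor1 and Flcn), 2 without AngII replicate 2 (Atp6v1d and Flcn), and 7 without AngII+HNG replicate 3, when Fnip2 was added and the median was 0.083. The log2 fold changes themselves moved less over the 20 alternative fits, within 0.26 to 0.30 for Flcn, 0.22 to 0.32 for Atp6v1d, 0.20 to 0.27 for Atp6v1b2, 0.15 to 0.19 for Atp6ap1, 0.23 to 0.30 for Atp6ap2 and 0.21 to 0.27 for Lamtor1.

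**Figure D2:**
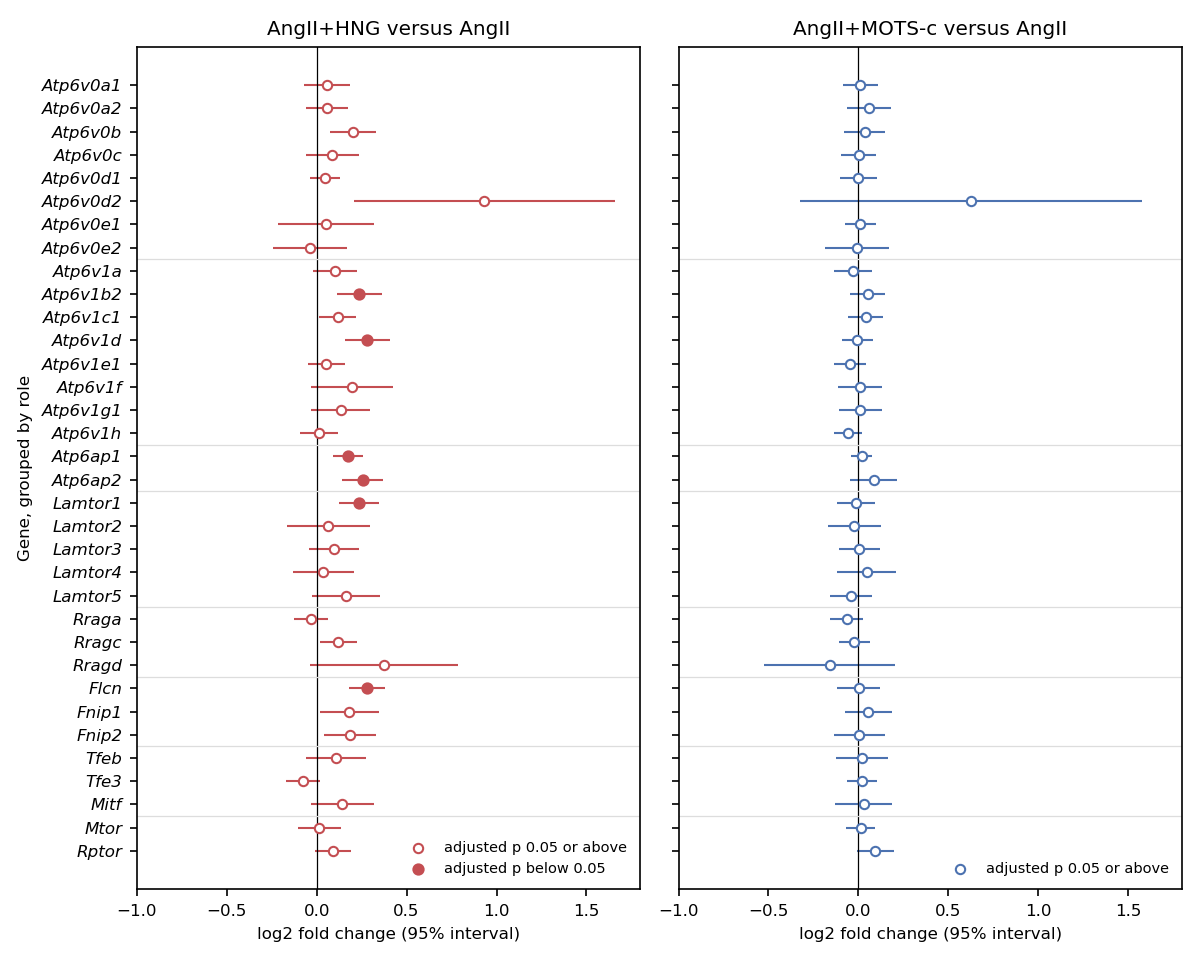
Log2 fold change with its 95% interval for the 34 genes, grouped by role, for AngII+HNG versus AngII on the left and AngII+MOTS-c versus AngII on the right. Filled points, adjusted p below 0.05, are the 6 genes called with HNG, and the right panel holds 0 filled points. Both panels share the AngII libraries.

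The V1 sector hydrolyses ATP and turns the rotor. Atp6v1d, the D subunit of the central rotor shaft, read 62.8, 65.95, 67.3 and 66.4 CPM in the 4 AngII libraries and 73.7, 78.1, 89.3 and 76.98 CPM with AngII+HNG. With AngII+MOTS-c it read 62.7, 63.1, 66.8 and 68.5 CPM. All 4 AngII+HNG values lay above every other library, with replicate 3 the highest. The log2 fold change against AngII was 0.28 (SE 0.057, adjusted p = 0.0119), and without AngII replicate 1 the adjusted p was 0.0588. Atp6v1b2, the B subunit that completes the ATP-binding sites, read 76.1, 77.3, 87.03 and 84.1 CPM in AngII, 89.3, 90.6, 98.1 and 103 CPM in AngII+HNG and 83.2, 82.01, 82.7 and 88.3 CPM in AngII+MOTS-c. Its lowest AngII+HNG library lay just above its highest AngII and AngII+MOTS-c libraries. Here the log2 fold change was 0.24 (SE 0.058, adjusted p = 0.0304). It lost the call without AngII replicate 1 (adjusted p = 0.118), AngII replicate 2 (0.112) or AngII+HNG replicate 4 (0.0862).

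The other 6 V1 genes all had positive log2 fold changes, from 0.011 for the regulatory H subunit Atp6v1h to 0.20 for the rotor subunit Atp6v1f, with adjusted p from 0.186 to 0.937. Atp6v1a, the catalytic A subunit, had means of 129 ± 10.7 CPM in AngII and 139 ± 6.497 CPM in AngII+HNG, with a log2 fold change of 0.10 and a 95% interval from -0.018 to 0.23. The A and B genes, whose proteins pair in the hexamer, thus had overlapping intervals, and their difference from each other was not tested. Atp6v1c1, the C subunit involved in joining V1 to V0, had means of 66.8 ± 3.88 and 72.1 ± 1.43 CPM and groups that did not overlap, with an adjusted p of 0.186. The stalk subunits Atp6v1e1 and Atp6v1g1 had log2 fold changes of 0.054 and 0.13. AngII+HNG replicate 3 was the highest of the 12 libraries for Atp6v1f and Atp6v1g1, and without it their values were 0.054 and 0.039.

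The accessory subunits are membrane proteins needed for the assembly and trafficking of the pump. Atp6ap1 read 145, 147, 149 and 149 CPM in AngII, 159, 174, 161 and 169 CPM in AngII+HNG and 146, 149, 151 and 149.7 CPM in AngII+MOTS-c. The AngII and AngII+MOTS-c libraries lay within a few CPM of each other and the AngII+HNG libraries lay above all of them. Its log2 fold change against AngII was 0.17 (SE 0.039, adjusted p = 0.018). The call was lost without AngII replicate 1 (adjusted p = 0.0761), AngII replicate 2 (0.0658), AngII replicate 3 (0.0522) or AngII+HNG replicate 2 (0.0623). Atp6ap2, also known as the prorenin receptor, read 30.004, 28.5, 29.2 and 32.5 CPM in AngII and 36.03, 34.8, 36.5 and 35.7 CPM in AngII+HNG. With AngII+MOTS-c the values were 29.3, 33.4, 30.3 and 34.3 CPM. The AngII+HNG libraries lay close together and above the rest, while AngII+MOTS-c replicates 2 and 4 came near them. Atp6ap2 had a log2 fold change of 0.25 (SE 0.052, adjusted p = 0.0122), with 0.0524 and 0.0509 without AngII replicates 1 and 2.

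In the V0 sector, which carries the protons across the membrane, 0 of 8 genes were called, 2 had an unadjusted p below 0.05, and DESeq2 called 1 of them, Atp6v0b. Atp6v0b, a ring proteolipid, had means of 21.9 ± 0.648 CPM in AngII and 25.2 ± 1.68 CPM in AngII+HNG, groups that did not overlap, and an adjusted p of 0.0635. It is one of the genes under 1000 bases, and AngII+HNG replicate 3 was its highest library. Atp6v0d2, the d subunit gene known from osteoclasts and macrophages, had only 7, 10, 11 and 15 counts in the AngII libraries. It had 23, 23, 16 and 15 counts in AngII+HNG and 26, 8, 7 and 21 in AngII+MOTS-c. As CPM these were 0.184, 0.286, 0.335 and 0.4004 in AngII, 0.816, 0.603, 0.483 and 0.421 in AngII+HNG and 0.753, 0.213, 0.245 and 0.643 in AngII+MOTS-c. The AngII+HNG values lay above the AngII values, and the AngII+MOTS-c libraries spread over both ranges. Its log2 fold change with HNG, 0.93, was the largest of the 34 and had the widest interval, 0.21 to 1.66, with an adjusted p of 0.134. The other 6 V0 genes lay between -0.037 for Atp6v0e2 and 0.086 for Atp6v0c. Without AngII+HNG replicate 3 these 2 values were 0.014 and 0.0066, and that of Atp6v0e1 turned from 0.052 to -0.12. Of the same 6, Atp6v0d1, whose promoter carries an E-box, had means of 139 ± 4.59 and 143 ± 3.46 CPM and an interval from -0.035 to 0.13.

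Ragulator is built of 5 subunits, of which Lamtor1 carries the lipid anchors. Lamtor1 read 52.9, 49.6, 47.97 and 53.8 CPM in AngII, 56.4, 60.1, 60.98 and 62.5 CPM in AngII+HNG and 52.8, 46.9, 51.2 and 51.8 CPM in AngII+MOTS-c. All 4 AngII+HNG values were above every other library. The log2 fold change was 0.24 (SE 0.051, adjusted p = 0.0164). Without AngII replicate 2, AngII replicate 3 or AngII+HNG replicate 4 the adjusted p was 0.0666, 0.0632 and 0.0505. It was 0.066 with replicates 2 and 3, whose library names share a number, summed in each group. The 4 subunits that form the core wrapped by Lamtor1 did not pass the test. Their log2 fold changes were 0.063 for Lamtor2, 0.095 for Lamtor3, 0.037 for Lamtor4 and 0.16 for Lamtor5. AngII+HNG replicate 3 was the highest library of its group for each of these, at 40.3 CPM for Lamtor2 where the other 3 libraries read 28.1 to 29.4 CPM. Without that library the values were -0.077, 0.055, -0.019 and 0.060 in the same order.

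The Rag GTPases work as pairs of RagA or RagB with RagC or RagD. Rraga had means of 63.5 ± 0.406 CPM in AngII and 61.9 ± 2.76 CPM in AngII+HNG, with a log2 fold change of -0.032. Rragc had 116 ± 5.69 and 126 ± 6.56 CPM, a log2 fold change of 0.12 and an adjusted p of 0.175. Rragd, which is itself known as a target of the MiT/TFE factors, read 1.95, 2.43, 1.76 and 1.602 CPM in AngII, 2.06, 1.99, 2.84 and 3.09 CPM in AngII+HNG and 1.74, 1.5998, 1.65 and 1.93 CPM in AngII+MOTS-c. AngII+HNG replicates 3 and 4 were higher than all other libraries, and replicates 1 and 2 lay within the AngII range. The log2 fold change was 0.37 with an interval from -0.037 to 0.78 and an adjusted p of 0.299.

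Folliculin and its partners FNIP1 and FNIP2 form the complex that activates GTP hydrolysis by RagC and RagD. Flcn read 51.7, 55.6, 53.7 and 53.1 CPM in AngII, 62.7, 62.5, 67.2 and 66.7 CPM in AngII+HNG and 47.2, 52.98, 56.5 and 57.5 CPM in AngII+MOTS-c. The AngII+HNG libraries lay above all 8 others. The log2 fold change against AngII was 0.28 (SE 0.045, adjusted p = 0.00339), the smallest adjusted p of the 34, and it stayed below 0.05 in all 20 alternative fits, from 2.23e-06 to 0.0259. Fnip1 had means of 52.8 ± 5.3002 CPM in AngII and 59.8 ± 5.37 CPM in AngII+HNG, and Fnip2 had 45.5 ± 3.41 and 51.5 ± 4.205 CPM. Their log2 fold changes were 0.18 and 0.19, with adjusted p of 0.205 and 0.138.

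The MiT/TFE factors are held in the cytoplasm by mTORC1. Tfeb read 14.9, 13.2, 13.5 and 14.2 CPM in AngII, 13.6, 15.4, 16.6 and 14.3 CPM in AngII+HNG and 13.9, 14.7, 14.8 and 13.1 CPM in AngII+MOTS-c. The 3 groups overlapped. With HNG its log2 fold change was 0.11 with an interval from -0.061 to 0.28 (adjusted p = 0.49). Tfe3 read 50.6, 53.96, 50.4 and 51.7 CPM in AngII, 46.9, 49.3, 49.4 and 49.7 CPM in AngII+HNG and 49.8, 53.7, 53.4 and 52.5 CPM in AngII+MOTS-c. Every AngII+HNG value was below every value of the other groups, by a small margin, and the log2 fold change against AngII was -0.077 (adjusted p = 0.37). Mitf read 10.4, 9.51, 9.89 and 10.4 CPM in AngII, 11.4, 11.04, 9.88 and 11.8 CPM in AngII+HNG and 10.1, 10.8, 9.25 and 10.7 CPM in AngII+MOTS-c. AngII+HNG replicates 1, 2 and 4 lay above the other libraries and replicate 3 within the AngII range, with a log2 fold change of 0.14 (adjusted p = 0.358). Melanocyte and Schwann cell markers, 1 of 7 of them (Tyr) at 0 in every library, summed to no more than 13.3 CPM in any library.

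Mtor, the kinase of mTORC1, read 81.9, 74.3, 76.02 and 73.1 CPM in AngII, 81.04, 76.8, 69.3 and 80.6 CPM in AngII+HNG and 77.9, 77.3, 76.8 and 75.5 CPM in AngII+MOTS-c. The groups overlapped, and the log2 fold change with HNG was 0.015, with an interval from -0.10 to 0.14. Rptor, the subunit that binds substrates and the Rag GTPases, had means of 36.1 ± 1.19 CPM in AngII and 38.3 ± 0.853 CPM in AngII+HNG and a log2 fold change of 0.089 (adjusted p = 0.307).

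**Figure D3:**
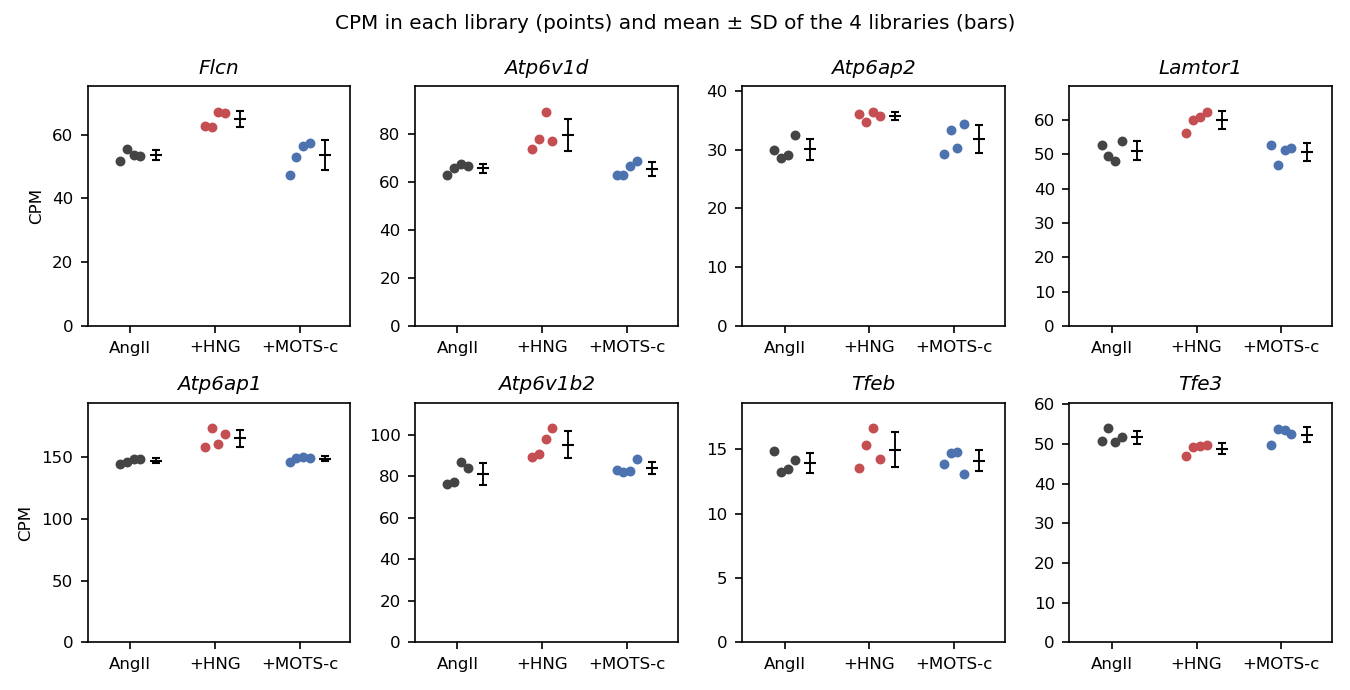
CPM (axis from 0) of the 6 genes called with HNG and of Tfeb and Tfe3 in each library, 4 points per group in replicate order, with the mean and SD beside them. The AngII+HNG points lie above both other groups in the first 6 panels, overlap them for Tfeb and lie below them for Tfe3.

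The second question was the same for MOTS-c. With MOTS-c, 0 of the 34 genes were called by edgeR, 0 had an unadjusted p below 0.05, and DESeq2 called 0. Over all 14488 genes tested, 0.0069% were called (1 gene, none of the 34) and 5.05% had an unadjusted p below 0.05. The log2 fold change was above 0 for 22 of the 34, against 49.6% of all tested, and the median was 0.011 against -0.00076. Without AngII+MOTS-c replicate 4 it was above 0 for 16 of the 34 and the median was -0.015. The groups did not overlap for 0 of the 34 and for 3.41% of all tested genes. Values of the genes called with HNG were 0.0018 for Flcn (interval -0.12 to 0.12), -0.011 for Lamtor1, -0.0064 for Atp6v1d, 0.018 for Atp6ap1, 0.053 for Atp6v1b2 and 0.085 for Atp6ap2 (interval -0.046 to 0.22). The 2 sparse genes had the widest intervals, -0.32 to 1.58 for Atp6v0d2 and -0.53 to 0.21 for Rragd, and the intervals of the other 32 all lay within -0.19 to 0.22. Tfeb, Tfe3 and Mitf had 0.021, 0.021 and 0.030. The smallest unadjusted p was that of Rptor, with 36.1 ± 1.19 CPM in AngII, 38.5 ± 2.27 CPM in AngII+MOTS-c and a log2 fold change of 0.095, at an adjusted p of 0.924.

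Both comparisons with AngII use the same 4 AngII libraries, so the peptides were also set against each other in a fit of their own 8 libraries. AngII+HNG against AngII+MOTS-c called 4 of the 34 genes higher and 0 lower, where 2.64% and 1.77% of all 14448 tested genes were called. They were Atp6v1d (log2 fold change 0.29, SE 0.059, adjusted p = 0.0157), Lamtor1 (0.24, SE 0.051, adjusted p = 0.0167), Flcn (0.28, SE 0.061, adjusted p = 0.0219) and Atp6ap1 (0.15, SE 0.040, adjusted p = 0.046). The log2 fold change was above 0 for 29 of the 34 (50.6% of all tested), with a median of 0.10 against 0.0023 (0.053 once the trend of fold change with gene length was subtracted), and the unadjusted p was below 0.05 for 13 (19.3% of all tested). The groups did not overlap for 8 genes with higher values and for Tfe3 with lower values, against 12.6% of all tested. Atp6v1b2 (0.18, adjusted p = 0.0675) and Atp6ap2 (0.17, adjusted p = 0.134) did not pass, so for these 2 a difference between the peptides was not shown. Rragd had its largest difference here, 0.53 with an interval from 0.15 to 0.92 (adjusted p = 0.119), and Tfe3 its lowest, -0.10 (adjusted p = 0.245).

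The calls between the peptides changed with single libraries, while the size of the differences changed less. Without AngII+MOTS-c replicate 2, 0 of the 34 genes were called (10 at an unadjusted p below 0.05), and without AngII+MOTS-c replicate 1 only Lamtor1 was. Leaving out AngII+HNG replicate 2, AngII+HNG replicate 4 or AngII+MOTS-c replicate 3 left 2 genes each, and leaving out AngII+MOTS-c replicate 4 left 3. Leaving out AngII+HNG replicate 1 or 3 gave 5 each, the 4 genes with Atp6v1b2 or Atp6v1a added. With replicates 2 and 3 summed 3 were called, and Atp6ap1 was not (adjusted p = 0.0854). With the numbers of the library names as blocks, only Atp6v1d and Lamtor1 were called, and without replicate 4 in both groups only Atp6v1d. Over all 20 alternative fits the log2 fold changes of the 4 genes stayed positive, within 0.22 to 0.33 for Atp6v1d, 0.20 to 0.29 for Lamtor1, 0.21 to 0.31 for Flcn and 0.12 to 0.18 for Atp6ap1. The adjusted p reached 0.075, 0.0767, 0.0835 and 0.152 in that order.

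Across libraries, the median deviation of the 34 genes from the AngII mean was 0.087, 0.11, 0.16 and 0.11 log2 CPM in AngII+HNG replicates 1 to 4, and between -0.033 and 0.052 in the other 8 libraries. AngII+MOTS-c replicate 4 was the highest library of its group for 19 of the 34 genes. Among the 27 genes of 1000 bases or more the AngII+HNG medians were 0.092, 0.11, 0.10 and 0.18. The deviations of the 7 shorter genes were -0.0055, 0.064, 0.41 and -0.0066. Replicate 3 was the highest AngII+HNG library for 6 of the 7 and the lowest for Atp6v0e2, and Atp6v0b was above the AngII mean in all 4 AngII+HNG libraries.

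**Figure D4:**
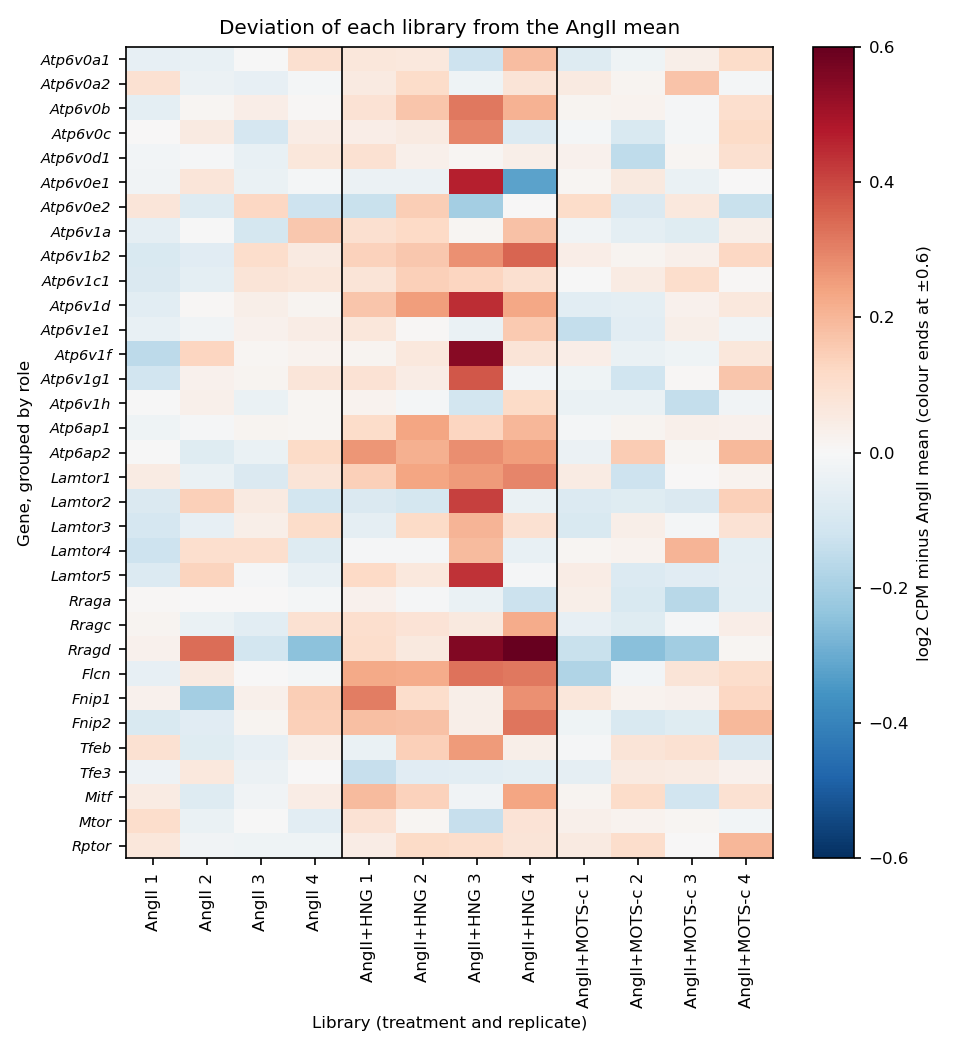
Log2 CPM minus the AngII mean for 33 genes (Atp6v0d2 is left out for its low counts) in each library, with the colour scale ending at ±0.6. The rows of Flcn, Lamtor1, Atp6ap1, Atp6ap2, Atp6v1b2 and Atp6v1d are red in all 4 AngII+HNG columns, while short genes such as Atp6v1f, Lamtor2 and Lamtor5 are strongly red only in AngII+HNG replicate 3, and the AngII+MOTS-c columns are mostly pale.

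Other genes of the pathway were counted from lists chosen by function. Of the other V-ATPase subunits, 3 of 7 had enough counts to be tested. Of these 1, Tcirg1, was higher with AngII+HNG than with AngII, as were 3.4% of all tested genes. It had 41.8 against 34.8 CPM (log2 fold change 0.27, adjusted p = 0.0312). With AngII+MOTS-c Tcirg1 had 38.8 CPM and a log2 fold change against AngII of 0.16 (edgeR, unadjusted p = 0.0226, adjusted p = 0.924). In the fit of AngII+HNG against AngII+MOTS-c its adjusted p was 0.386. Leaving out AngII replicate 1, 2 or 3 or AngII+HNG replicate 4 ended the call of Tcirg1. None of 11 tested assembly factors, 8 other mTORC1 and RHEB-TSC genes or 18 genes of nutrient sensing upstream of the Rag GTPases was called by edgeR, with 2, 1 and 1 genes at an unadjusted p below 0.05, and DESeq2 called 1 RHEB-TSC gene and 0 of the others. Among 14 other genes of TFEB regulation, such as calcineurin subunits, 14-3-3 proteins and the MiT/TFE factor Tfec, 1 was called higher and 0 lower. Of all tested genes 3.4% were called higher and 2.58% lower. Within the 14, 6 had an unadjusted p below 0.05 (20.3% of all tested genes). The list was not split by whether a gene raises or restrains TFEB, so its median gives no direction of TFEB activity. Values of the log2 fold change were below 0 for 8 of the 14, with a median of -0.033 against 0.0043 over all tested genes, and the AngII+HNG libraries lay wholly below AngII for 5 genes and wholly above for 2, where 13.7% of all tested genes did not overlap. The lowest value was that of the 14-3-3 gene Ywhag, with 280.0 against 317 CPM (-0.17, adjusted p = 0.0564). The gene called higher was Mcoln1, the lysosomal calcium channel upstream of calcineurin, with 30.996 against 25.7 CPM (log2 fold change 0.28, adjusted p = 0.0188). The call count of this list was 0 without AngII replicate 1, 2 or 3 or AngII+HNG replicate 2, and 2 without AngII+HNG replicate 1 or 3.

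The list of lysosomal and autophagy genes known as targets of TFEB or its relatives had 30 genes analysed here, all tested. With AngII+HNG, 15 were higher than in AngII and 0 were lower (3.4% and 2.58% of all tested genes), and the median log2 fold change was 0.20. The 4 with the smallest adjusted p were Gaa, which digests glycogen, Gpnmb, a membrane glycoprotein, and the cathepsins Ctsd and Ctsa. Gaa had 148 against 112 CPM (0.41, adjusted p = 0.000582), and Gpnmb 755 against 492 CPM (0.62, adjusted p = 0.00148). Ctsd had a log2 fold change of 0.37 (adjusted p = 0.00205) and Ctsa of 0.24 (0.00277). With AngII+MOTS-c 0 of the 30 were called by edgeR, 0 had an unadjusted p below 0.05 and DESeq2 called 0. Between the peptides, 11 were higher with AngII+HNG (2.64% of all tested genes), and 7 without AngII+MOTS-c replicate 2. An E-box was found in 9 of the 24 of these genes with a promoter entry (37.5%), against 9.13% of the promoters of tested genes. The CLEAR element was in 0 of these 24 and the M-box in 6. The genes were listed as targets of factors that bind the E-box, so this share is not an independent result.

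Macrophages also express many lysosomal genes, Gpnmb and Atp6v0d2 among them. In the same libraries edgeR called 4 of 15 tested macrophage markers higher with AngII+HNG and 0 lower (3.4% and 2.58% of all tested genes). The log2 fold change was above 0 for 12 of the 15, with a median of 0.29 against 0.0043 over all tested genes. An unadjusted p below 0.05 was found for 10 (20.3% of all tested). The 4 called were Lyz2 with 171 against 102 CPM (0.75, adjusted p = 0.000262), Cd68 (0.69, 0.00343), Mrc1 (0.55, 0.00568) and Ptprc (0.37, 0.0257). Csf1r, the receptor that defines the lineage, had 59.5 against 53.1 CPM (adjusted p = 0.4). Adgre1, C1qc and C1qb had negative values (-0.36, -0.43 and -0.046, adjusted p = 0.185, 0.255 and 0.916). Osteoclast markers, with Calcr at 0 in every library, summed to 116 to 120.3 CPM in AngII and 127 to 138 CPM in AngII+HNG. Most of that sum was Itgb3, with 69.9 against 62.7 CPM, and Ctsk, with 36.8 against 32.3 CPM. Of the 6 tested, 0 were called by edgeR with AngII+HNG against AngII and 5 had an unadjusted p below 0.05 (20.3% of all tested genes). Ocstamp and Oscar had negative values (-0.80 and -0.066). The part of these cells in the differences of the pump and regulator genes was not tested.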

How the data were processed

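RNA of primary rat atrial fibroblasts was sequenced in 12 libraries, 4 in each of 3 treatments, which were read from the sample titles. The authors made mRNA libraries for paired-end DNBSEQ sequencing, and the count per gene was deposited as a whole number without scaling. FPKM, the count per length and library total, was deposited by the authors for each gene as well. HISAT2, Picard 1.41 and SAMtools 0.1.18 are named in the submitters' processing notes, and the tool that counted reads, its strand setting and the build are not given in the sources used here. No deposited column lacked a sample. Of the features, 4465 had no counts and 320 were outside the annotation. Culture details and doses come from the study's methods.

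Counts were tested in R 4.3.3 with edgeR 4.0.16 (filterByExpr, TMM scaling, glmQLFit and glmQLFTest) on the 8 libraries of each comparison, with Benjamini-Hochberg adjustment over all genes tested and a threshold of 0.05 without a limit on the fold change. "Called" means past that threshold. CPM are counts scaled to a common library total with TMM factors over all 12 libraries, and deviations are log2 CPM with a prior count of 2. Intervals are 95% intervals of the fitted log2 fold change. All 34 genes passed the filter in each comparison. A floor of 3 counts per library was a chosen value and entered no test. The steps were tested on simulated counts with planted changes larger than those of the genes called here. Recovery of differences as small as these was therefore not tested. Alternatives were RLE scaling, DESeq2 1.42.0, a filter of at least 10 counts per library or none, one fit over the 12 libraries, robust estimation, limma 3.58.1 on log2(FPKM + 1) and log2(FPKM + 0.1), the sum of replicates 2 and 3 (their library names share a number), a replicate block, subtraction of a gene length curve with a loess span of 0.5, and omission of libraries.

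The 34 genes and all lists were chosen by function with earlier results of these data known, so no test was run on a list. Values in every library are given for genes called in any comparison and for Atp6v0d2, Tfeb, Tfe3, Mitf, Flcn, Rragd and Mtor, and the others are given by means, ranges and counts. Of each pathway list up to 4 called genes are named, by smallest adjusted p with HNG. The markers named singly and the sequences shown were chosen after values were seen. Vma22, Rragb, Seh1l, Samtor and Dcstamp of the lists were not analysed here, 1 further gene of the TFEB target list is not reported here, and Kics2 was found as RGD1565498. Where strand was not used in counting, overlapping genes on the other strand could add reads. Promoter entries are those of RefSeq for GRCr8, matched by symbol, with 1 start per gene.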

Additional observations from a re-analysis of the deposited data

Results flagged for a closer look

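Each gene and group of 4 libraries was searched for a library far from the other 3, by the gap to its nearest neighbour over the range of the group (Dixon's test at the 95% level). Of 102 groups searched, 6 passed, and about 1 in 20 would by chance. AngII+HNG replicate 3 was high for Atp6v1f at 54.97 CPM (the others 38.1 to 39.7 CPM) and for Lamtor2 at 40.3 CPM (28.1 to 29.4 CPM), both genes under 1000 bases. AngII+MOTS-c replicate 4 was high for Lamtor2 at 33.4 CPM (28.5 to 28.7 CPM). AngII+MOTS-c replicate 3 was low for Atp6v1h at 66.4 CPM (71.2 to 72.1 CPM). AngII+HNG replicate 1 was low for Tfe3 at 46.9 CPM (49.3 to 49.7 CPM), and AngII replicate 1 was high for Rptor at 37.9 CPM (35.4 to 35.6 CPM). None of these 5 genes was called in any comparison.

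The peptides differed in edgeR's test of AngII+HNG against AngII+MOTS-c for 4 genes, with log2 fold changes of 0.286 for Atp6v1d, 0.154 for Atp6ap1, 0.245 for Lamtor1 and 0.275 for Flcn, each higher with HNG in 4 of 4 libraries than the AngII+MOTS-c mean. The peptides were used at different doses, so peptide and dose cannot be told apart.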

How the results depend on the processing

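For the 12 genes given in every library, 636 of 714 values under the alternatives kept their direction and their side of the threshold, 37 lost the call, 3 gained it (Atp6v1b2 between the peptides, with DESeq2, with the replicate block and without AngII+HNG replicate 1) and 38 uncalled values changed sign, while 0 called ones did. Of the other 22 genes, Atp6v0b was called for AngII+HNG against AngII with DESeq2, with all 12 libraries, with either block, with limma at either pseudocount and without AngII+HNG replicate 1, and Fnip2 with the block by library name and without AngII+HNG replicate 3. Between the peptides, Rragc and Fnip2 were called with the replicate block and Atp6v1a without AngII+HNG replicate 3. The number called with AngII+HNG against AngII ranged from 2 to 7 when a library was left out, and was 4 without replicate 4 in both groups. The median over the 34 genes was 0.083 without AngII+HNG replicate 3, up to 0.143 (without AngII replicate 4) when 1 library was left out, and 0.141 without replicate 4 in both groups. With AngII+MOTS-c 0 were called under each alternative. Between the peptides the number called ranged from 0 to 5 when a library was left out and was 1 without replicate 4 in both groups, and the median fell to 0.053 with the gene length curve subtracted. Same-numbered libraries showed no clear pairing (correlations of -0.075 to 0.14, 0.000026 to 0.12 and -0.014 to 0.21 in the 3 comparisons), and not every pair was over 0.1, so the numbers were not taken as pairs. Replicate 4 had the highest median deviation of each group over the 27 longer genes (0.046, 0.18 and 0.063). With the replicate block, 7 genes were called for AngII+HNG against AngII, 0 for AngII+MOTS-c and 7 between the peptides. When the numbers of the library names formed the blocks these were 8, 0 and 2, and with replicates 2 and 3 summed they were 5, 0 and 3.

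The counts of the pathway lists were recomputed under the same alternatives, which was decided after seeing the data. For AngII+HNG against AngII, the other genes of TFEB regulation had 3 calls with DESeq2. They had 2 with at least 10 counts, with all 12 libraries, with the replicate block and with robust estimation. With replicates 2 and 3 summed or without replicate 4 in both groups they had 0, and 0 to 2 when a library was left out. The other V-ATPase subunits had 0 with replicates 2 and 3 summed, with limma at either pseudocount and without replicate 4 in both groups, and 0 to 1 when a library was left out, as had the assembly factors. The other mTORC1 genes had 1 with DESeq2. Between the peptides, the other genes of TFEB regulation had 1 with DESeq2, with all 12 libraries and with the replicate block. The TFEB targets had 7 to 12 when a library was left out. The causes were not tested. Genes near 10 counts, such as Atp6v0d2, are limited by depth.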
